A study of Mus musculus with 18 samples.

Results

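The miR-181 family was followed through 8 groups of mouse cells as 7 mature microRNAs, taken by name from every table: mmu-miR-181a-5p, mmu-miR-181b-5p, mmu-miR-181c-5p and mmu-miR-181d-5p from the 5′ arms, and mmu-miR-181a-1-3p, mmu-miR-181a-2-3p and mmu-miR-181c-3p from the 3′ arms (the prefix mmu, for mouse, is left out from here on). These are 7 of 1359 miRNAs listed in at least 1 of the 3 sets of libraries, and all 7 were listed in each set and passed the minimum used for testing (a mean of 10 normalised counts over the libraries of a set). Small-RNA sequencing was done on B cells from spleen and on mouse embryonic fibroblasts (MEF) that differ in their level of miR-17~92, a polycistronic miRNA cluster with a known oncogenic role. The groups were OV (cluster overexpressed), d/d (cluster deleted) and fl/fl (floxed, unrecombined), with 1 B-cell library and 3 MEF libraries each. A second MEF set, all d/d for miR-17~92, carried either a miR-290~295 plasmid or an empty plasmid (Empty), again with 3 libraries each. The labels call the cells isogenic and give the strain of every sample, MEF included, as Eu-myc, a transgene in which the immunoglobulin heavy chain enhancer drives Myc in B-lineage cells. The labels do not say how OV was made, whether a group is a single clone, or whether replicates came from separate cultures, so the p-values measure only the spread between these libraries, which may be technical.

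In animals, a miRNA hairpin is cut by Drosha and then Dicer into a duplex, and the strand kept by Argonaute pairs through its seed, bases 2 to 8, with target mRNAs. The miR-181 family is well known from haematopoiesis: miR-181a is abundant in lymphoid precursors, promotes B-lineage output when expressed in progenitors, and sets T-cell receptor sensitivity in thymocytes. Its 5′ arms are usually the guide strands, and the 3′ arms are usually called passenger strands.

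The mature sequences are shown because the 5′ arms share a seed, while only the 3′ arms tell the miR-181a loci apart. Sequences and positions are from RefSeq, build GRCm38.p6, and capitals mark the seed.
miR-181a-5p: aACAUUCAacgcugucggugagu
miR-181b-5p: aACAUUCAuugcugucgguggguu
miR-181c-5p: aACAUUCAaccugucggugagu
miR-181d-5p: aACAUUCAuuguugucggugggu
miR-181a-1-3p: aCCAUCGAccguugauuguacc
miR-181a-2-3p: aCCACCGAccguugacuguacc
miR-181c-3p: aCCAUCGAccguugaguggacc

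Of the 1679 mature mouse miRNAs in the RefSeq table, the 4 with the seed ACAUUCA were these 4 5′ arms. miR-181a-1-3p and miR-181c-3p were the only 2 with CCAUCGA, and miR-181a-2-3p was the only 1 with CCACCGA. Counting positions from 1 at the 5′ end, miR-181d-5p differs from miR-181b-5p by C12U and by lacking its last base. miR-181c-5p is 1 base deletion away from miR-181a-5p, and miR-181a-2-3p differs from miR-181a-1-3p by U5C, within the seed, and U16C. Reads of such near-identical mature forms could have been split or assigned differently by the authors' counting, so the values of miR-181b-5p beside miR-181d-5p, and of miR-181a-5p beside miR-181c-5p, are uncertain to that extent.

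The family has 3 loci. Mir181a-1 (chr1:137966455-137966541, plus strand) and Mir181b-1 lie 97 bases apart inside Gm4258, annotated as a processed transcript on the same strand. Mir181a-2 (chr2:38852735-38852810, plus strand) and Mir181b-2 lie 1019 bases apart inside Nr6a1, a nuclear receptor gene on the opposite strand. Mir181d (chr8:84178716-84178787, minus strand) and Mir181c (chr8:84178873-84178961) lie 85 bases apart inside Nanos3, on the same strand. The hairpins of the miR-181a copies, with both mature arms in capitals, show that the 5′ product is the same from each and the 3′ product is not.
Mir181a-1: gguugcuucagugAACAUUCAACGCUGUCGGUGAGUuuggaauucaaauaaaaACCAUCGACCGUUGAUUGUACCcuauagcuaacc
Mir181a-2: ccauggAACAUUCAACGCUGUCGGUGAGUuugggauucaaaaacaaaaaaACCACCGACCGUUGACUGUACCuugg

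The libraries held 10203586 to 10612256 reads on listed miRNAs in B cells, 17191892 to 24920911 in the miR-17~92 MEF set and 43164128 to 58911475 in the miR-290~295 MEF set. The summed mature miRNAs of miR-17~92 followed the labels, in reads per 1000000 miRNA reads of a library (RPM): 20915 to 23082 RPM in OV MEF, 74.6 to 99.8 in d/d MEF and 3382 to 5115 in fl/fl MEF, and 363005 in OV, 3784 in d/d and 125579 in fl/fl B cells. Of the 8 blood-cell markers, 7 were listed in B cells and summed to 10394 to 18039 RPM there, against 399 to 910 in MEF. Among these blood-cell markers miR-142a-3p and miR-142a-5p reached no more than 1.66 RPM in any MEF library. The MEF sums were mostly miR-155-5p and miR-486a-5p, with group means of 290 to 419 and 178 to 484 RPM in MEF, above the 55.9 to 78.1 and 6.78 to 14.7 RPM in B cells. In B cells miR-142a-3p had 5005, 7219 and 6110 RPM in OV, d/d and fl/fl, while miR-150-5p, a marker of mature lymphocytes, was near 0 (5.19, 1.04 and 6.22 RPM). The 8 fibroblast markers summed to 213720 to 306169 RPM in MEF and to 24744 in OV, 56350 in d/d and 41492 in fl/fl B cells. Nearly all of the B-cell sums was miR-21a-5p, and the other 7 markers summed to 195, 1138 and 272 RPM in OV, d/d and fl/fl B cells, against group means of 43066 to 75994 in MEF. Markers of other cell types also summed higher in B cells than in MEF. Endothelial markers had 336 to 538 against 55.6 to 115 RPM, and epithelial markers 202 to 261 against 1.07 to 11.3. Neural markers had 4193 to 7113 against 380 to 826 RPM. Most of the neural sums was miR-128-3p, at 3316, 6978 and 4672 RPM in OV, d/d and fl/fl B cells and group means of 467 to 767 in MEF.

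B cells held more of the family than MEF, and the 3′ arms of the 2 miR-181a copies stood in opposite order in the 2 cell types. The shared 5′ arm cannot be split between the copies. The 3 sets were normalised separately, so B cells and MEF are set side by side only as shares of each library's miRNA reads, in RPM, with no test. The 7 members together made up 6846 RPM in OV B cells against 765 ± 126 (SD, n = 3) in OV MEF. They made up 7833 in d/d B cells against 941 ± 118 in d/d MEF, and 6442 in fl/fl B cells against 880 ± 21.2 in fl/fl MEF. The B-cell share was thus 8.95, 8.32 and 7.32 times the MEF share of the same genotype for OV, d/d and fl/fl cells. In bulk RNA, more cells that make a miRNA and more of it per cell cannot be told apart.

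miR-181a-5p was the most abundant member in OV B cells, at 3138 RPM (95% exact interval 3104 to 3173), and in d/d B cells, at 3735 (3698 to 3772). In fl/fl B cells miR-181b-5p led, at 2771 RPM (2739 to 2802), ahead of miR-181a-5p at 2542 (2512 to 2573). These intervals cover counting error only, because reads without molecular identifiers are not independent molecules. In all 5 MEF groups miR-181b-5p led and miR-181c-5p came last. The miR-181b-5p share was 372 ± 57.7 RPM in OV, 327 ± 53.0 in d/d and 363 ± 12.7 in fl/fl MEF, and 409 ± 62.5 with miR-290~295 and 501 ± 80.7 with the empty plasmid (SD, n = 3 each). From the highest mean to the lowest the order was Empty, miR-290~295, OV, fl/fl and d/d, and the libraries of each overlapped those of the next.

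miR-181a-1-3p, which comes only from the chromosome 1 locus, had 581 RPM in OV, 646 in d/d and 725 in fl/fl B cells. In MEF it ranged from 24.1 to 69.8 over the 15 libraries, so no library overlapped between the cell types. miR-181a-2-3p, from the chromosome 2 locus, ran the other way: 64.8, 132 and 52.8 RPM in OV, d/d and fl/fl B cells, against 73.9 to 223 over the MEF libraries. It was the only member whose share was lower in B cells than in MEF of the same genotype for all 3 genotypes, at 0.62, 0.61 and 0.30 times for OV, d/d and fl/fl. The chromosome 8 miRNA miR-181d-5p was 14.2 times higher in OV B cells than in OV MEF and 7.61 times higher in fl/fl B cells than in fl/fl MEF. In d/d cells its share was 98.5 RPM in B cells and 110 ± 10.1 in MEF, a ratio of 0.90.

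**Figure D1:**
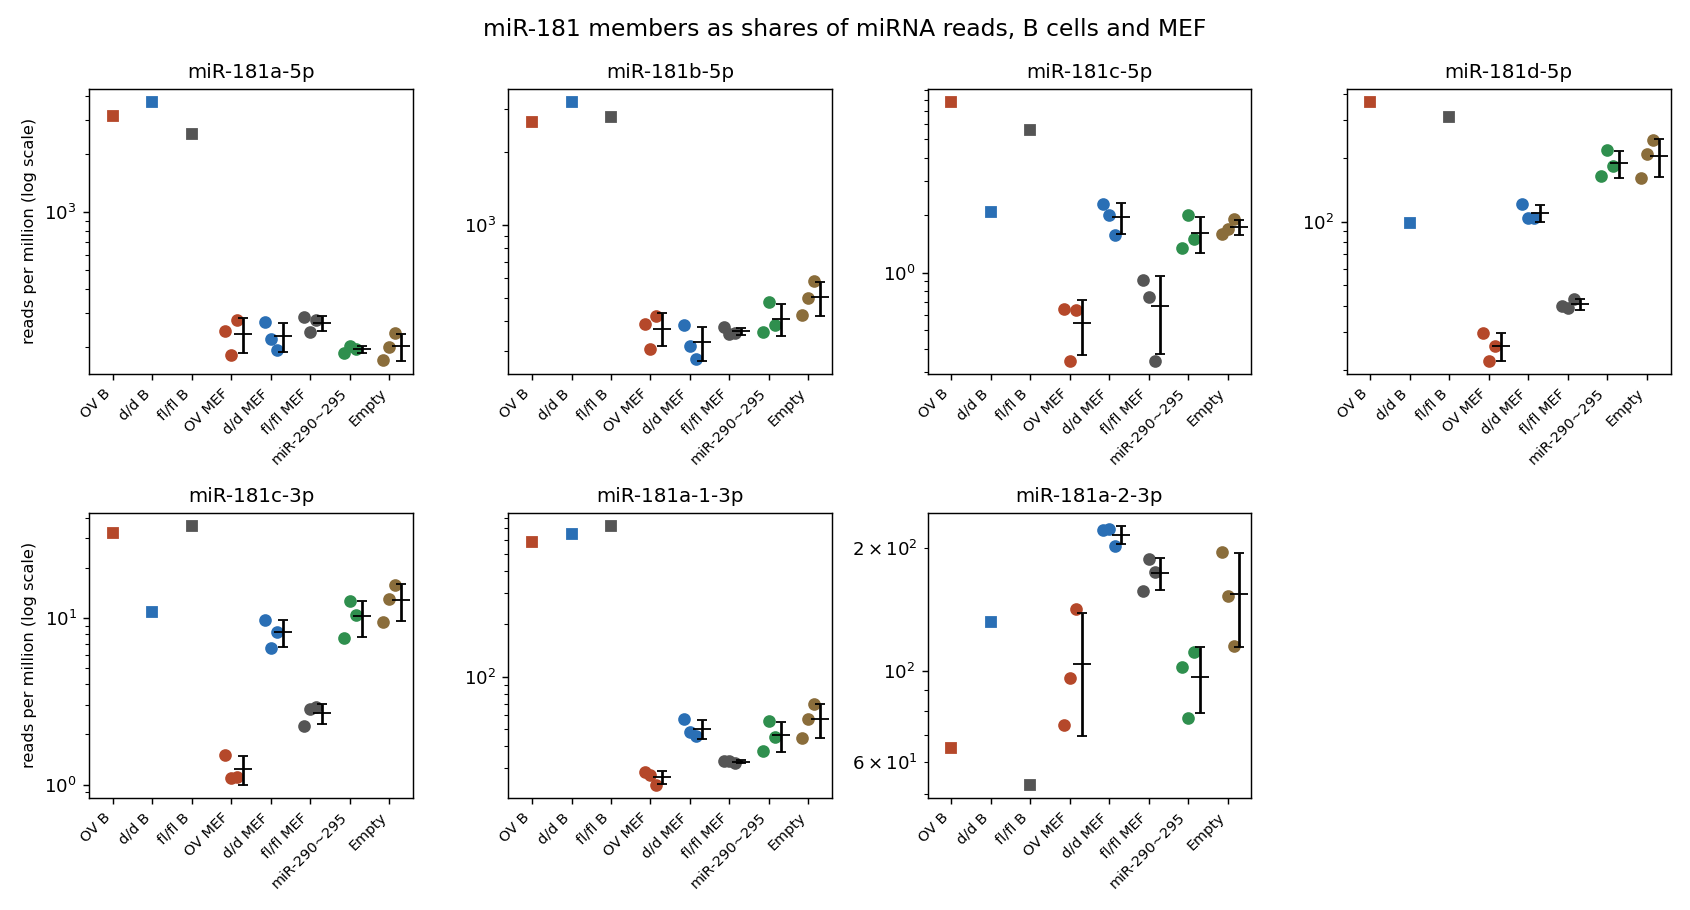
Share of miRNA reads (RPM, log scale) of each miR-181 member in 8 groups, with B-cell libraries as squares (1 per group), MEF libraries as circles and the MEF mean ± SD in black (n = 3). miR-181a-5p, miR-181b-5p and miR-181a-1-3p are higher in every B-cell library than in every MEF library, while miR-181a-2-3p is highest in d/d MEF, at 216 ± 11.3, and lowest in fl/fl B cells, at 52.8.

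The ratio of miR-181a-2-3p to miR-181a-1-3p within a library does not depend on scaling. It was 0.11, 0.20 and 0.07 in OV, d/d and fl/fl B cells. In MEF it was 4.0 ± 1.7 in OV, 4.33 ± 0.38 in d/d and 5.32 ± 0.51 in fl/fl, and 2.18 ± 0.71 with miR-290~295 and 2.90 ± 1.39 with the empty plasmid. The 3′ product of the chromosome 1 copy therefore led in all 3 B-cell libraries and that of the chromosome 2 copy in all 15 MEF libraries. The rarer 3′ arms of miR-181b, which are not among the 7 members, did not separate the cell types: miR-181b-1-3p was 5.17, 2.66 and 9.72 times miR-181b-2-3p in OV, d/d and fl/fl B cells, and 1.38 ± 0.53, 0.99 ± 0.32 and 1.16 ± 0.37 times in OV, d/d and fl/fl MEF. It was 2.43 ± 0.63 times with miR-290~295 and 3.21 ± 1.31 times with the empty plasmid, a range of 1.91 to 4.71 over those 6 libraries that takes in the d/d B-cell value. The combined 3′ arms of miR-181a amounted to 20.6%, 20.8% and 30.6% of miR-181a-5p in OV, d/d and fl/fl B cells, and to 56.6 ± 13.2%, 118 ± 13.3% and 78.2 ± 13.3% in OV, d/d and fl/fl MEF. In d/d MEF without a plasmid the combined 3′ arms thus outnumbered the 5′ arm in each of the 3 libraries. The d/d MEF that carried a plasmid did not all share this. Their libraries had 141%, 105% and 78.5% with the empty plasmid, and 74.8%, 65.8% and 80.0% with miR-290~295.

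The first MEF comparison asks what differs when miR-17~92 is raised. In OV MEF miR-181d-5p, miR-181c-3p and miR-181a-2-3p fell relative to fl/fl MEF. The abundant 5′ arms miR-181a-5p and miR-181b-5p, and the rare miR-181c-5p, overlapped between the groups, and miR-181a-1-3p did not pass the test. Of the 7 members, 3 were lower and 0 higher at an adjusted p under 0.05 (limma, Benjamini-Hochberg over 662 miRNAs). Among all 662 miRNAs 31.3% were called, 15.7% lower and 15.6% higher. No member was higher at an unadjusted p under 0.05 or by edgeR either. The member median was −0.33 on the log2 scale, beside −0.07 over all miRNAs. Groups did not overlap for 4 members, all lower in OV, beside 48.6% of all miRNAs (24.2% lower and 24.5% higher).

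The values of this set are normalised counts, and log2 changes are on the log2(normalised count + 1) scale. miR-181d-5p had 546, 438 and 488 normalised counts in OV libraries, against 759, 781 and 844 in fl/fl libraries. All OV libraries lay below all fl/fl libraries, a log2 change of −0.70 (SE 0.13, adjusted p = 0.00312). miR-181c-3p, the 3′ arm of its neighbour, had 27.8, 21.7 and 20.9 against 43.0, 57.3 and 57.1, a change of −1.13 (SE 0.22, adjusted p = 0.00382). These rest on 19 to 28 reads per OV library and 42 to 51 per fl/fl library.

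miR-181a-2-3p had 1357, 1925 and 2683 normalised counts in OV libraries, against 2999, 3780 and 3413 in fl/fl libraries. The groups did not overlap, but the OV libraries spanned a wide range (1988 ± 665, SD), and the change of −0.82 (SE 0.21, adjusted p = 0.0163) was no longer called when the fl/fl library numbered 4 or the one numbered 5 was left out (adjusted p = 0.0596 and 0.0574). miR-181a-1-3p, from the other miR-181a locus, had 525, 546 and 456 against 631, 659 and 625 without overlap, a change of −0.33 (SE 0.13) that missed the threshold (adjusted p = 0.0733).

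The 5′ arms that carry most of the family's reads were not called. miR-181a-5p had 4477, 3652 and 5223 normalised counts in OV libraries and 5439, 4783 and 5379 in fl/fl libraries, a change of −0.24 (SE 0.15, adjusted p = 0.245). miR-181b-5p had 7133, 6149 and 7936 in OV libraries and 7186, 7086 and 6981 in fl/fl libraries, a change of −0.01 (SE 0.13, adjusted p = 0.948). Both pairs of groups overlapped, and the OV libraries were the more spread. miR-181c-5p was too rare to resolve a change of this size, with 11.9, 6.87 and 12.1 in OV and 17.4, 14.9 and 6.72 in fl/fl libraries, from 6 to 17 reads each (change −0.25, SE 0.38, adjusted p = 0.620).

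In d/d MEF the chromosome 8 members rose above fl/fl MEF, miR-181a-1-3p rose less, and miR-181a-5p and miR-181b-5p did not pass the test. Of the 7 members, 4 were higher and 0 lower. Among all 662 miRNAs 58.3% were called in this comparison, 30.7% higher and 27.6% lower. At an unadjusted p under 0.05, 2 members were lower, and edgeR called 0 lower. The member median was 0.49, beside 0.02 over all miRNAs. Groups did not overlap for 6 members, 4 higher and 2 lower in d/d, beside 68.0% of all miRNAs (34.9% higher and 33.1% lower).

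miR-181d-5p had 2039, 1886 and 1973 normalised counts in d/d libraries, against the 759, 781 and 844 in fl/fl libraries given above. It was 2.47 times higher, a log2 change of 1.31 (SE 0.13, adjusted p = 1.80e-05), the smallest adjusted p among the members in this comparison, with a narrow spread within each group. Its neighbours on chromosome 8 moved by like amounts: miR-181c-3p had 162, 120 and 157 against 43.0, 57.3 and 57.1 (change 1.46, SE 0.22, adjusted p = 0.000206). miR-181c-5p had 38.4, 36.3 and 29.8 against 17.4, 14.9 and 6.72 (change 1.44, SE 0.38, adjusted p = 0.00739). In all 3 the lowest d/d library lay above the highest fl/fl library.

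miR-181a-1-3p had 955, 869 and 865 normalised counts in d/d libraries, against 631, 659 and 625 in fl/fl libraries, a change of 0.49 (SE 0.13, adjusted p = 0.00741). miR-181a-2-3p had 3726, 4030 and 3855 in d/d libraries and 2999, 3780 and 3413 in fl/fl libraries, which overlapped (change 0.19, SE 0.21, adjusted p = 0.458). The 3′ arms are set beside 5′ arms that lay the other way. miR-181a-5p had 4555, 3975 and 3692 in d/d libraries and 5439, 4783 and 5379 in fl/fl libraries (change −0.36, SE 0.15, adjusted p = 0.0645). miR-181b-5p had 6440, 5739 and 5311 in d/d libraries and 7186, 7086 and 6981 in fl/fl libraries (change −0.29, SE 0.13, adjusted p = 0.0745). Both groups of d/d libraries lay wholly below the fl/fl libraries without passing the threshold.

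**Figure D2:**
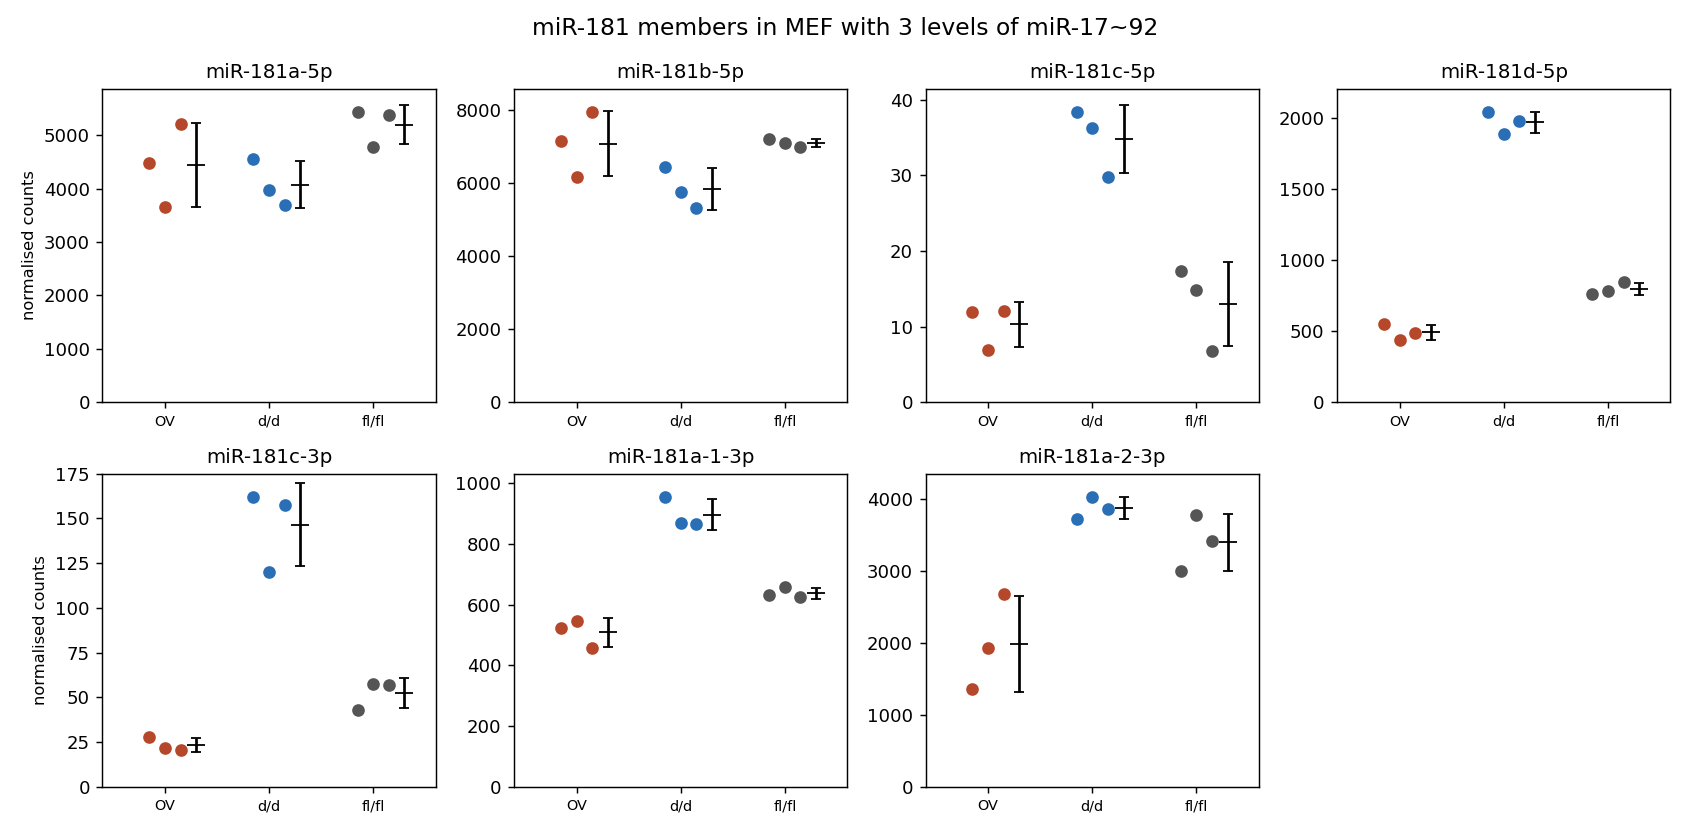
Normalised counts of each miR-181 member in OV, d/d and fl/fl MEF, with 1 circle per library and the mean ± SD in black (n = 3). miR-181d-5p, miR-181c-5p and miR-181c-3p have their highest values in d/d MEF, at 1966 ± 76.4, 34.8 ± 4.50 and 146 ± 23.1, while miR-181a-5p and miR-181b-5p average 4451 and 7073 in OV, 4074 and 5830 in d/d and 5200.5 and 7084 in fl/fl MEF.

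Scaling bears on these calls. The authors also deposited a table scaled to spike-ins, in which the median log2 change of all miRNAs was −0.39 for d/d versus fl/fl, 0.07 for OV versus fl/fl and 0.60 for OV versus d/d. In that table miR-181a-5p and miR-181b-5p fell in d/d MEF, by 0.79 and 0.72 on the log2 scale (adjusted p = 0.000570 and 0.000650). The rise of miR-181a-1-3p was not called there (0.06, adjusted p = 0.741) or with library medians made equal (0.21, adjusted p = 0.265), and the sign of miR-181a-2-3p turned (−0.24). The rises of miR-181d-5p (0.88, adjusted p = 0.000351), miR-181c-3p (1.04, adjusted p = 0.00217) and miR-181c-5p (1.03, adjusted p = 0.0388) kept their call. Relative to the median of all miRNAs, miR-181d-5p stood at 1.27 with spike-ins and 1.29 without. On the same footing miR-181a-5p stood at −0.39 and −0.37, and miR-181a-1-3p at 0.45 and 0.47. The tables share their reads and differ by a factor per library, so this likeness was fixed in advance and is no check of the changes. All 3 members called lower in OV versus fl/fl MEF were also called in the spike-in scaled table.

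Between the extremes of miR-17~92, OV against d/d MEF, 5 members fell and 0 rose. This comparison shares its libraries with the others, so its values follow from theirs. Among all 662 miRNAs 52.4% were called, 25.7% lower and 26.7% higher. No member was higher at an unadjusted p under 0.05 or by edgeR. The chromosome 8 members differed most. miR-181c-3p averaged 23.5 ± 3.76 normalised counts in OV MEF and 146 ± 23.1 in d/d MEF, a change of −2.59 (SE 0.22, adjusted p = 2.76e-06). miR-181d-5p averaged 491 ± 53.7 in OV MEF and 1966 ± 76.4 in d/d MEF, a change of −2.01 (SE 0.13, adjusted p = 7.31e-07).

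miR-181c-5p, at 10.3 ± 2.96 in OV MEF and 34.8 ± 4.50 in d/d MEF, changed by −1.70 (SE 0.38, adjusted p = 0.00305). The miR-181a 3′ arms fell by less. miR-181a-2-3p averaged 1988 ± 665 in OV MEF and 3870 ± 153 in d/d MEF (change −1.01, SE 0.21, adjusted p = 0.00218), and miR-181a-1-3p averaged 509 ± 47.1 in OV MEF and 897 ± 50.9 in d/d MEF (change −0.82, SE 0.13, adjusted p = 0.000271). Groups did not overlap for these 5 members, all lower in OV, beside 58.2% of all miRNAs (29.3% lower and 28.9% higher). In the spike-in scaled table both miR-181a 3′ arms lost their call (adjusted p = 0.0790 and 0.176), and miR-181a-5p (0.68) and miR-181b-5p (0.84) were called higher in OV, around that table's median of 0.60.

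**Figure D3:**
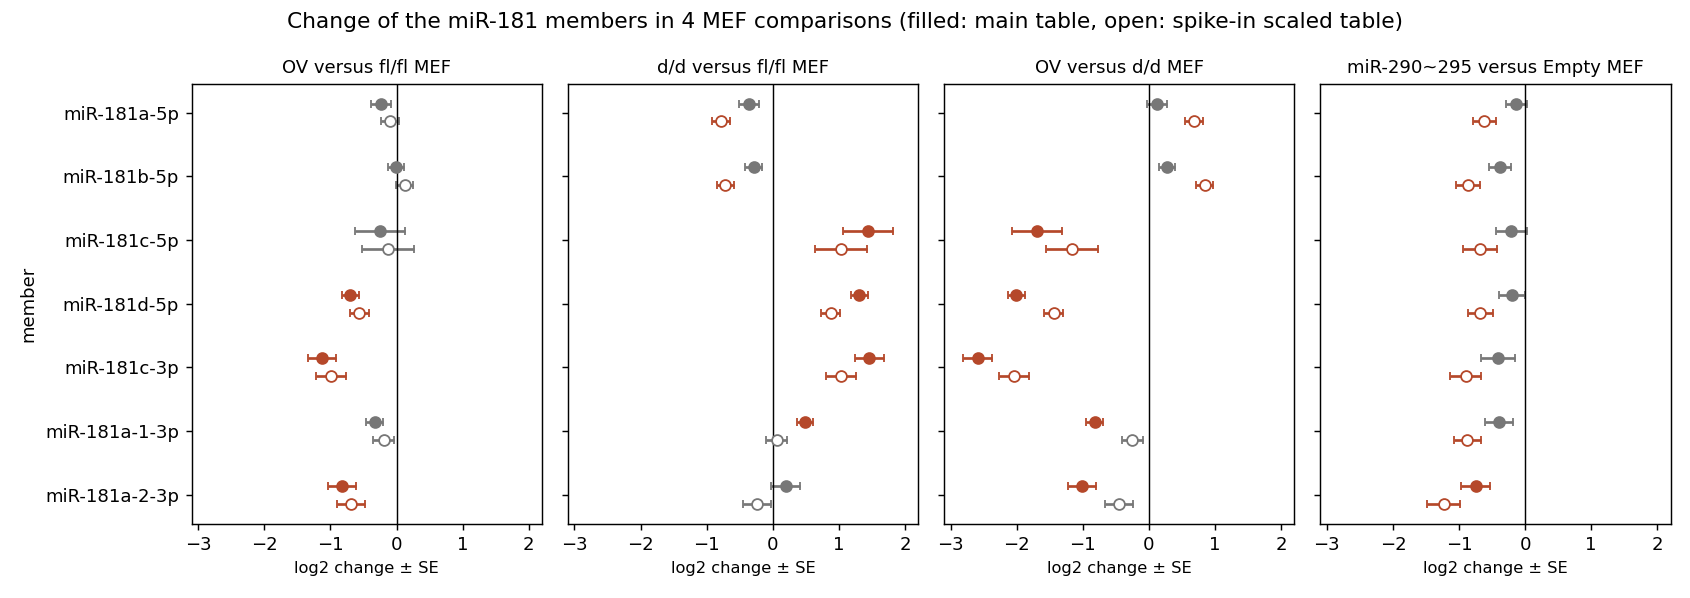
Log2 change ± SE of each miR-181 member in the 4 MEF comparisons, with filled circles for the main table, open circles for the spike-in scaled table, red for an adjusted p under 0.05 and grey otherwise. miR-181d-5p and miR-181c-3p are called in all 3 comparisons of the miR-17~92 set in both tables, and within a comparison the open circles stand apart from the filled ones by nearly the same distance for every member.

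The chromosome 8 members therefore made up a changing part of the family. miR-181c-5p, miR-181d-5p and miR-181c-3p together held 3.64 ± 0.53% of the family's reads in OV MEF, 12.8 ± 0.71% in d/d MEF and 5.01 ± 0.22% in fl/fl MEF. miR-181d-5p was 6.97 ± 0.76% of miR-181b-5p in OV MEF, 33.9 ± 2.88% in d/d MEF and 11.2 ± 0.78% in fl/fl MEF, and the 3 groups of libraries did not overlap. miR-181c-5p was 0.23 ± 0.04% of miR-181a-5p in OV, 0.85 ± 0.05% in d/d and 0.25 ± 0.11% in fl/fl MEF. miR-181c-3p outnumbered miR-181c-5p in every library, by 2.41 ± 0.72 times in OV, 4.27 ± 0.99 in d/d and 4.94 ± 3.16 in fl/fl MEF. For miR-181c, then, the 3′ arm was the more abundant strand, whereas miR-181b-5p outnumbered its combined 3′ arms, which were 0.58 ± 0.08%, 1.19 ± 0.26% and 0.71 ± 0.11% of it in OV, d/d and fl/fl MEF.

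**Figure D4:**
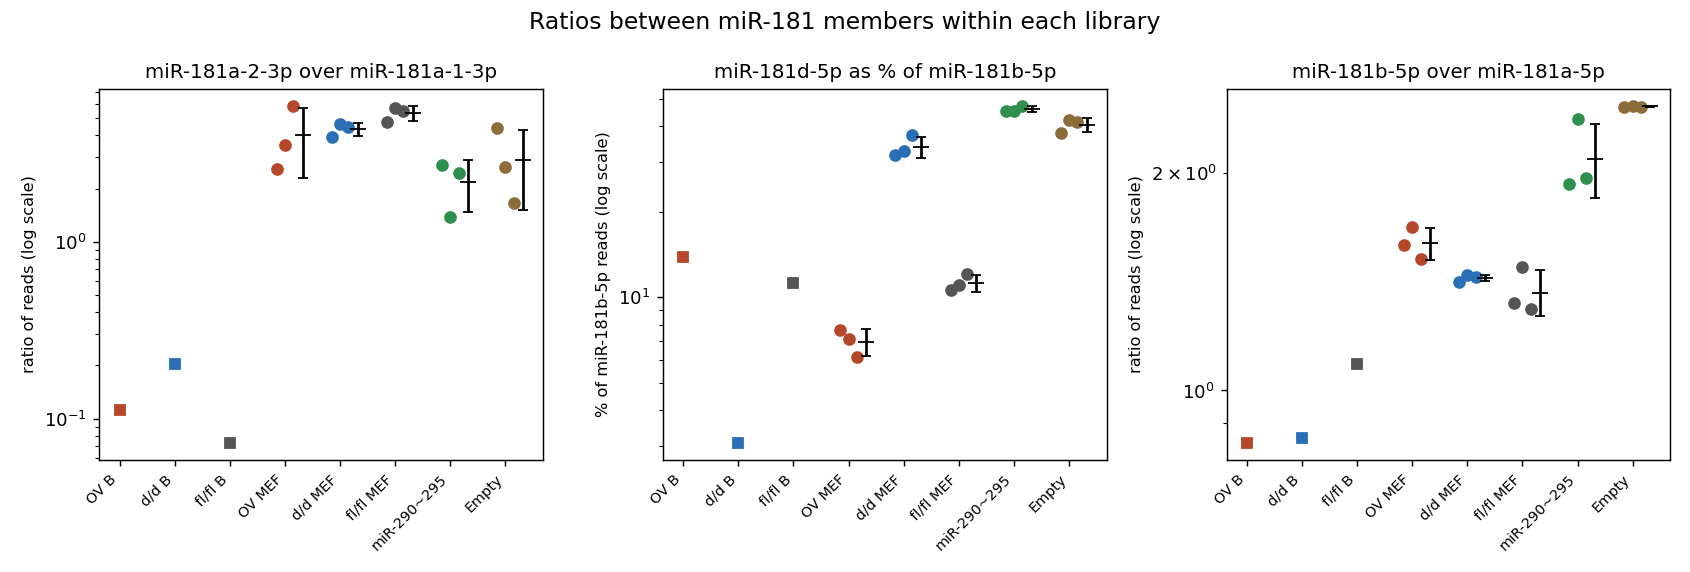
Ratios between members within each library (log scale), with B-cell libraries as squares, MEF libraries as circles and the MEF mean ± SD in black (n = 3). The miR-181a-2-3p to miR-181a-1-3p ratio is at most 0.20 in B cells and at least 1.38 in MEF, and miR-181d-5p as a percentage of miR-181b-5p runs from 3.07% in d/d B cells to 46.0 ± 1.16% in d/d MEF with miR-290~295.

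Beside Mir181c, 29556 bases away and on the opposite strand, lies the Mir23a, Mir27a and Mir24-2 cluster, whose 6 mature miRNAs were added to the account after the values were seen. In OV versus fl/fl MEF 5 of the 6 were higher and 0 lower, beside 15.6% and 15.7% of all miRNAs, where the chromosome 8 miR-181 members were lower or not called. miR-27a-3p, for example, averaged 39885 ± 7283 normalised counts in OV MEF and 24832 ± 1365 in fl/fl MEF (change 0.67, SE 0.13, adjusted p = 0.00382). In d/d versus fl/fl MEF 2 of the 6 were higher and 2 lower, near the 30.7% and 27.6% of all miRNAs, and miR-27a-3p fell to 18303 ± 166 in d/d MEF (change −0.44, adjusted p = 0.0131).

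The miR-290~295 cluster is the main miRNA cluster of mouse embryonic stem cells and several of its members have seeds closely related to that of miR-17. In d/d MEF given it, 1 miR-181 member fell relative to d/d MEF with the empty plasmid, miR-181a-2-3p, and 0 rose. Among the 840 miRNAs tested 38.9% were called, 22.3% lower and 16.7% higher. No member was higher at an unadjusted p under 0.05 or by edgeR. All 7 changes were below 0, from −0.13 to −0.75 with a median of −0.38, beside a median of 0.02 over all miRNAs. Groups did not overlap for this 1 member, beside 49.6% of all miRNAs (26.1% lower and 23.6% higher).

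miR-181a-2-3p had 4844, 3608 and 5312 normalised counts with miR-290~295, against 9500, 7957 and 5835 with the empty plasmid. The lowest Empty library stood just above the highest miR-290~295 library, a change of −0.75 (SE 0.21, adjusted p = 0.0224). The call did not survive leaving out Empty replicate 2 (adjusted p = 0.0744), miR-290~295 replicate 1 (0.0538) or miR-290~295 replicate 2 (0.0794). Without Empty replicate 1, 4 members were called lower in place of 1, miR-181b-5p, miR-181a-1-3p and miR-181c-3p being added.

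miR-181a-1-3p had 1791, 2617 and 2157 normalised counts with miR-290~295 and 2160, 3005 and 3528 with the empty plasmid (change −0.39, SE 0.22, adjusted p = 0.178). Empty replicate 1 was the lowest of the 3 Empty libraries for 6 of the members and the highest for miR-181a-2-3p. miR-181b-5p had 17131, 22508 and 18428 with miR-290~295 and 20508, 25936 and 29500 with the empty plasmid (change −0.38, SE 0.17, adjusted p = 0.109). miR-181a-5p had 8872, 9466 and 9340 with miR-290~295 and 8286, 10450 and 11934 with the empty plasmid (change −0.13, SE 0.16, adjusted p = 0.538). The groups overlapped for all 3.

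The chromosome 8 members were not called in this set. miR-181d-5p had 7742, 10212 and 8714 normalised counts with miR-290~295 and 7750, 10897 and 12224 with the empty plasmid (change −0.19, SE 0.19, adjusted p = 0.451). miR-181c-3p averaged 482 ± 116 with miR-290~295 and 647 ± 172 with the empty plasmid (change −0.42, SE 0.26), and miR-181c-5p 76.3 ± 15.7 with miR-290~295 and 87.4 ± 9.28 with the empty plasmid (change −0.21, SE 0.23). They held a large part of the family in both groups, 21.0 ± 1.10% with miR-290~295 and 19.1 ± 1.85% with the empty plasmid.

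In the spike-in scaled table of this set all 7 members were called lower, with changes from −0.62 to −1.23, where the median of all miRNAs was −0.46. Among the 846 miRNAs tested there, 331 were called lower and 56 higher. Relative to the median of its table miR-181a-5p changed by −0.16 in both, and miR-181a-2-3p by −0.78 with spike-ins and −0.77 without. Here too the shared reads fixed this likeness in advance.

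**Figure D5:**
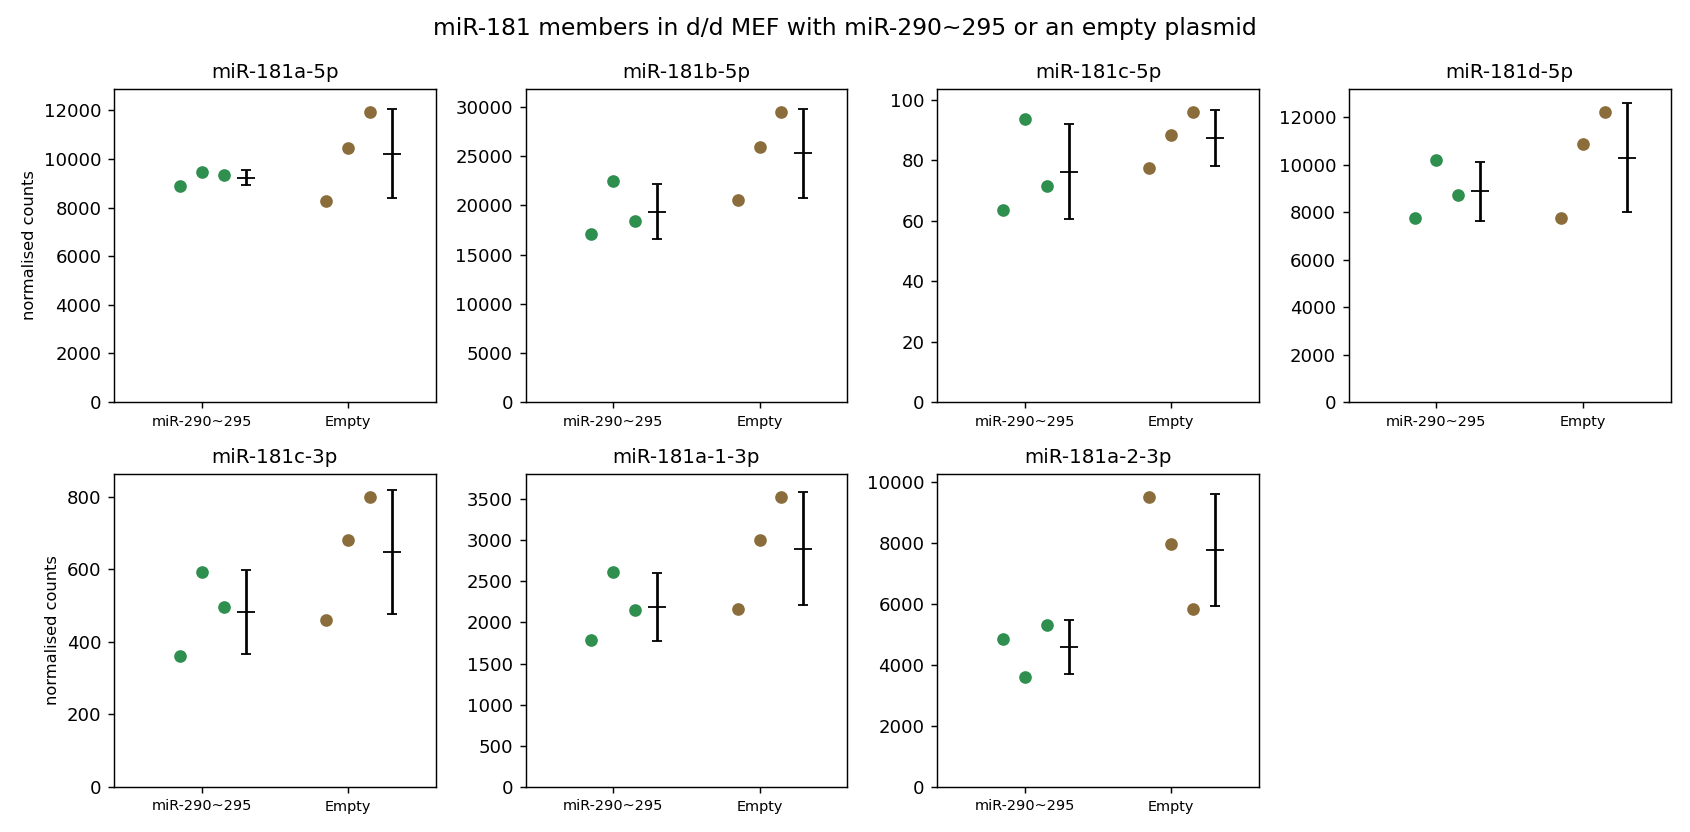
Normalised counts of each miR-181 member in d/d MEF with miR-290~295 or with an empty plasmid, with 1 circle per library and the mean ± SD in black (n = 3). The groups overlap for 6 members, and for miR-181a-2-3p the libraries with miR-290~295 reach 5312 and those with the empty plasmid start at 5835.

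B cells had 1 library per group, so their differences have no replicate check and no test, and the intervals cover counting error between 2 libraries only. The 3 chromosome 8 members were lowest in the d/d library among B cells, where d/d was the highest group among OV, d/d and fl/fl MEF. miR-181d-5p had 5022 normalised counts in OV, 827 in d/d and 3100 in fl/fl B cells, from 3749, 1041 and 3288 reads. miR-181c-3p had 445, 91.3 and 358, and miR-181c-5p had 107, 17.5 and 55.6, the last from 80, 22 and 59 reads in OV, d/d and fl/fl B cells.

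For d/d over fl/fl B cells the ratios of normalised counts were 0.27 for miR-181d-5p (95% interval 0.25 to 0.29), 0.25 for miR-181c-3p (0.21 to 0.31) and 0.31 for miR-181c-5p (0.18 to 0.52). As shares of reads they were 0.32, 0.30 and 0.37. With miR-181a-2-3p on the higher side, these were the 4 members past 2-fold in normalised counts in this pair of libraries, where 35.5% of 476 miRNAs were past 2-fold, 19.3% lower and 16.2% higher. In OV over d/d B cells 3 members were past 2-fold, all 3 higher and all from chromosome 8, beside 39.3% of all miRNAs (20.6% higher). In OV over fl/fl B cells no member was past 2-fold, beside 13.7% of all miRNAs (6.72% higher and 6.93% lower).

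miR-181a-2-3p had 885 normalised counts in OV, 1109 in d/d and 528 in fl/fl B cells, from 661, 1397 and 560 reads. It was the only member highest in the d/d library on this scale, with a ratio over fl/fl of 2.10 (1.90 to 2.32). The d/d B-cell library also held more of most fibroblast markers. In RPM 6 of the 8 were more than 2-fold above the fl/fl library, beside 16.2% of 476 miRNAs in normalised counts. The exceptions were miR-21a-5p, at 55212 RPM in d/d and 41220 in fl/fl B cells, and miR-196a-5p. The latter was lower in the d/d library, at 19.6 RPM against 25.5 in fl/fl B cells. miR-143-3p stood at 79.6 in OV, 627 in d/d and 130 in fl/fl B cells, and miR-199a-3p at 26.9, 178 and 34.1 RPM. In d/d MEF the same markers stood at 66467 and 5568, and miR-181a-2-3p at 216 RPM. Their part in the miR-181a-2-3p value was not tested.

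None of the 3 most abundant members was past 2-fold between B-cell libraries. The direction of miR-181a-5p over fl/fl was the same on both scales, and that of miR-181b-5p and miR-181a-1-3p in OV over fl/fl depended on the scale. So did that of miR-181b-5p in d/d over fl/fl (0.97 in normalised counts and 1.16 in shares of reads). In OV over d/d all 3 depended on it, at 1.37 and 0.84 for miR-181a-5p, 1.35 and 0.83 for miR-181b-5p, and 1.47 and 0.90 for miR-181a-1-3p. miR-181a-5p had 42896 normalised counts in OV, 31351 in d/d and 25435 in fl/fl B cells. OV over fl/fl was 1.69 in normalised counts and 1.23 in shares of reads, and d/d over fl/fl was 1.23 and 1.47. miR-181b-5p, with 36283, 26940 and 27719 in OV, d/d and fl/fl B cells, gave OV over fl/fl ratios of 1.31 in normalised counts and 0.96 in shares. miR-181a-1-3p, with 7941, 5419 and 7249, gave 1.10 and 0.80. In the OV library 30.7% of all miRNA reads were miR-92a-3p, a member of miR-17~92. Its part in the difference between the scales was not tested.

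By likeness of profile, the miRNAs closest to miR-181a-5p over the 9 libraries of the miR-17~92 MEF set were miR-191-5p, miR-214-5p, miR-145a-3p, miR-30e-5p and miR-652-3p. Their root mean square difference of centred log2 values was 0.12 to 0.16, beside a median of 0.51 over 655 miRNAs outside the family. For miR-181b-5p they were miR-191-5p, let-7d-5p, miR-145a-3p, miR-450b-3p and miR-30c-2-3p, at 0.07 to 0.15. Among members, miR-181a-5p and miR-181b-5p differed from each other by 0.11, and miR-181a-5p differed from miR-181d-5p by 0.92 and from miR-181c-3p by 1.15. Over the 6 libraries of the miR-290~295 set the closest to miR-181a-5p were miR-101b-3p, miR-30e-5p and miR-106b-3p, and the closest to miR-181b-5p were miR-3068-3p, miR-1839-5p and miR-378a-3p. The order among members was not the same there. miR-181a-5p differed from miR-181b-5p by 0.16, from miR-181d-5p by 0.11 and from miR-181c-3p by 0.24.

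Of 14 other miRNAs known from lymphocyte development 11 were tested in each MEF set. The numbers called were 2 of 11 beside 31.3% of all miRNAs in OV versus fl/fl and 5 of 11 beside 58.3% in d/d versus fl/fl. They were 5 of 11 beside 52.4% in OV versus d/d, and 3 of 11 beside 38.9% with miR-290~295. A list of 11 is too small to set these shares apart from those of all miRNAs, and the first 3 comparisons share libraries. In OV versus fl/fl MEF 1 was higher, miR-146a-5p, which restrains signalling through NF-kappaB, at 4378 ± 801 normalised counts in OV MEF and 1519 ± 77.0 in fl/fl MEF (change 1.51, adjusted p = 9.72e-05), and 1 was lower, miR-28a-5p. In d/d versus fl/fl MEF 1 was higher, miR-28a-5p, and 4 were lower: miR-155-5p, miR-29a-3p, miR-16-5p and miR-26a-5p. In OV versus d/d MEF 3 were higher, miR-146a-5p, miR-29a-3p and miR-26a-5p, and 2 lower, miR-21a-5p and miR-28a-5p. With miR-290~295 1 was higher than with the empty plasmid, miR-29a-3p, and 2 were lower, miR-34a-5p and miR-146a-5p. The change of miR-146a-5p was 1.76 in OV versus d/d MEF (adjusted p = 2.78e-06) and −2.19 with miR-290~295 (adjusted p = 6.27e-05). The list medians were −0.14, −0.25, −0.05 and −0.32 in these 4 comparisons, each beside a median over all miRNAs between −0.07 and 0.02.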

How the data were processed

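Small RNAs from 18 libraries were gel-purified from total RNA, with spike-ins, and sequenced from NEBNext small RNA libraries, per the labels' protocols. Each deposited signal value is a whole read count of a mature miRNA over a scaling factor common to its library. The submitters' processing notes name DESeq2, with no version. The sources used here give neither the aligner nor the genome build. Dividing each column, B cells included, by its lowest value above 0 gave whole reads for 100% of values (tolerance 0.0001). MEF tables came with and without spike-in scaling, and the tables without it were used for the main tests. The 33 deposited rlog columns were not used. The labels' numbers do not identify the OV and fl/fl MEF columns, which were used as replicates of their group.

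Values were tested with limma 3.58.1 with a mean-variance trend (R 4.3.3) on log2(value + 1), for miRNAs with a mean of at least 10, over all libraries of a set, with Benjamini-Hochberg adjustment at 0.05. The fits were tested on simulated data. edgeR 4.0.16 on the recovered reads, other scalings, pseudocounts of 0.5 and 5, other minimums, no trend, fewer groups, a replicate block and leaving out each library were alternatives. RPM values are shares of each library's listed miRNA reads, with exact 95% intervals (SciPy 1.17.1). Family sums, ratios and B-cell libraries were not tested. The members and lists were chosen with earlier results of these data known. All 7 members are named. As the most alike, the 5 (miR-17~92 MEF set) and 3 (miR-290~295 MEF set) miRNAs with the smallest root mean square difference of centred log2 values are named. Members of the lists are named where they define a cell type or, for the lymphocyte development list, passed a test. Of the chromosome 8 neighbours outside the family, miR-27a-3p is named as an example.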

Additional observations from a re-analysis of the deposited data

Results flagged for a closer look

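In 10 cases the libraries of 2 MEF groups did not overlap for a miR-181 member and the matching pair of B-cell libraries differed the other way, beyond counting error, in normalised counts and in shares of reads. This held for 2 of the 7 members in OV versus fl/fl, 5 of 7 in d/d versus fl/fl and 3 of 7 in OV versus d/d, beside 7.69%, 19.1% and 13.6% of the 403 miRNAs kept in both sets. The difference between the cell types was not tested, because B cells have 1 library per group. All values are log2 changes, given for B cells first. For d/d versus fl/fl, miR-181d-5p stood at −1.91 in B cells and 1.31 in MEF, miR-181c-3p at −1.97 and 1.46, and miR-181c-5p at −1.67 and 1.44. For the same pair miR-181a-1-3p stood at −0.42 in B cells and 0.49 in MEF, and miR-181a-5p at 0.30 and −0.36, the last not past the test in MEF. For OV versus d/d, miR-181d-5p stood at 2.60 in B cells and −2.01 in MEF, miR-181c-3p at 2.28 and −2.59, and miR-181c-5p at 2.62 and −1.70. For OV versus fl/fl, miR-181d-5p stood at 0.70 in B cells and −0.70 in MEF, and miR-181a-2-3p at 0.75 and −0.82. These comparisons share libraries, and miR-181d-5p, miR-181c-5p and miR-181c-3p come from 1 locus, so the cases are not independent of each other. A miRNA with many reads also passes the limit of counting error more easily than a rare one, so the shares of the 403 miRNAs are only a rough reference.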

How the results depend on the processing

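Over the 4 MEF comparisons the 7 members gave 476 results under alternatives, of which 434 kept direction and side of the threshold, 10 lost a call, 25 gained a call and 7 changed sign. The sign changes were all of values not called: miR-181b-5p in OV versus fl/fl (−0.01) became 0.13 with spike-in scaling, 0.039 with edgeR, 0.087 without the OV library numbered 2 and 0.00027 without the fl/fl library numbered 3 (−0.097 to 0.087 leaving out a library); miR-181a-2-3p in d/d versus fl/fl (0.19) became −0.24 with spike-in scaling and −0.090 with medians made equal; miR-181a-5p in OV versus d/d (0.12) became −0.0053 without the OV library numbered 4 (−0.0053 to 0.25 leaving out a library). The number of members called lower in d/d versus fl/fl was 0, and 2 with spike-in scaling, with medians made equal and with only the compared groups in the fit (0 to 2 leaving out a library). The number called higher was 4, and 3 with spike-in scaling and with medians made equal. It was 2 with a minimum mean of 100, which leaves out miR-181c-5p and miR-181c-3p. In OV versus d/d, members called higher were 0, and 2 with spike-in scaling and 1 with medians made equal (0 to 1 leaving out a library), and called lower 5, and 3 with spike-in scaling or a minimum of 100. With miR-290~295, members called lower were 1, and 7 with spike-in scaling, 2 with medians made equal and 0 without the trend (0 to 4 leaving out a library). The causes of these shifts were not tested, beyond the change of scale itself.

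Over all miRNAs, calls in OV versus fl/fl numbered 207, and 124 to 236 leaving out a library. The split of calls into higher and lower moved with scaling: 103 and 104 became 112 and 44 with spike-ins in OV versus fl/fl, 203 and 183 became 147 and 283 in d/d versus fl/fl, 177 and 170 became 333 and 120 in OV versus d/d, and 140 and 187 became 56 and 331 with miR-290~295. With medians made equal it was 83 and 153 in OV versus fl/fl and 162 and 245 in d/d versus fl/fl. A replicate block in the miR-290~295 set called 298 miRNAs in place of 327 and kept the call of miR-181a-2-3p (adjusted p = 0.0302). Same-numbered libraries there correlated at 0.28, 0.01 and −0.26 after each group was centred, and differently numbered ones at −0.38 to 0.39. With 3 libraries per group these values cannot decide whether the numbers pair the samples. In the miR-17~92 set no paired analysis was possible because the OV and fl/fl columns carry none of the labels' replicate numbers. With the 693 miRNAs listed in all 3 sets as the denominator, the B-cell over MEF folds of family shares were 8.97 for OV, 8.32 for d/d and 7.34 for fl/fl. Depth limits miR-181c-5p most, at 6 to 17 reads in OV and fl/fl MEF libraries.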
